A study of Mus musculus with 10 samples.

Results

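Plac8, the gene of probeset ENSMUSG00000029322, was followed in cultured mouse macrophages with and without the transcription factor gene Atf3, at rest and after LPS. It was chosen by its identifier, as 1 of 16860 gene-level probesets in the deposited table, and because its level in resting Atf3-/- macrophages stood out against that of wild type. The values of the arrays without LPS therefore chose the gene. They are given as a description, with no test, except where they enter the mean LPS response. Macrophages had been grown from femoral bone marrow in recombinant human M-CSF at 50 ng/mL, and their RNA was hybridised to Affymetrix Mouse Genome 430 2.0 arrays. The mice were labelled C57BL/6J, female and 8 to 12 weeks old, either wild type or Atf3-/-. Each genotype had 3 arrays without LPS and 2 arrays after 4 h with LPS at 10 ng/mL, an outer membrane component of Gram-negative bacteria that macrophages sense through Toll-like receptors. The labels do not name the Atf3 allele. Nor do they say whether replicate arrays stem from different animals, and the p-values below cover the spread among these arrays, possibly a technical one.

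Plac8, also listed as C15 and known as onzin, encodes a small cysteine-rich protein that is made in the placenta and in blood cells, above all of the myeloid lineage. Mice that lack it are known for a weakened killing of bacteria by their neutrophils, and the gene has also been tied to brown fat and, in human tumour cells, to autophagy. ATF3 is a factor of the ATF/CREB family that Toll-like receptor signals induce and that is known to restrain inflammatory genes. Plac8 had 1 probeset here, so no second probeset checked its values.

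The stretch upstream of Plac8 is shown because the compared cells differed in a DNA-binding factor. It lies on chromosome 5 on the minus strand at chr5:100572254-100572455 of GRCm38.p6. It comes from RefSeq's 250 bases before 1 of 2 listed starts, shortened to the 202 bases outside the annotated gene, and runs 5′ to 3′ with motif matches in capitals.
Plac8 upstream region: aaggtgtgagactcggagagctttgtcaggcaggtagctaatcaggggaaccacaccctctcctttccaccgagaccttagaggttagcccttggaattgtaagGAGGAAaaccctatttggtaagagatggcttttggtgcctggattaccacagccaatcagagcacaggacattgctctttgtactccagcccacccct
It was searched on both strands for 7 motifs. The capitals mark the single match, the PU.1 core GAGGAA, a motif of the myeloid factor PU.1, which 18.9% of 32851 RefSeq windows of the same length also held. No match was found in these 202 bases for the CRE core TGACG (held by 12.9% of windows) or the AP-1 element TGANTCA (5.63%), the motifs of ATF and AP-1 factors. The same was true of the core of the interferon-stimulated response element (2.44%) and the STAT motif TTCNNNGAA (5.82%). It was also true of the C/EBP motif TTGCNNAA (8.2%) and the C/EBP-ATF motif TGATGNAA (2.74%). These matches describe letters within 1 window, and binding was not measured.

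Before the values are read, 1 feature of the arrays needs stating. Probeset ENSMUSG00000086503, picked out after its values were seen, split the arrays into 5 with log2 values of 8.95 to 9.57 and 5 with values of 2.94 to 3.76. A further 2 probesets were high in exactly the arrays where it was low, with a gap of more than 3 on the log2 scale. In wild type, high values belonged to the 3 resting arrays and to 0 of 2 arrays with LPS, so that state and treatment cannot be told apart there. Among Atf3-/- arrays replicate 3 of the 3 resting ones and replicate 2 of the 2 with LPS were high. The labels give all samples as female and name no property that follows this split. Whether the split goes against the sex label was not tested, since no sex-linked gene could be named here, and the state values below carry that doubt. The files do not pair probesets with gene names, so Atf3 itself was not analysed here, and neither the genotype labels nor the cell type was checked by named genes. Array medians lay between 5.45 and 5.56 (log2), and the lowest value of an array between 2.26 and 2.41.

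Plac8 was low in resting wild type macrophages and high in resting Atf3-/- macrophages. In wild type without LPS its log2 level was 3.69, 3.28 and 3.95 in replicates 1 to 3, a mean of 3.64 ± 0.34 (SD, n = 3). In Atf3-/- without LPS it was 7.71, 7.26 and 7.76, a mean of 7.58 ± 0.28 (SD, n = 3). In such whole cultures, more cells with Plac8 and more Plac8 RNA per cell cannot be told apart. Every Atf3-/- array lay above every wild type array, as was true of 18.2% of all probesets. The fitted log2 difference was 3.94 (limma SE 0.20), or 15.3-fold on the linear scale. Among all probesets this was the largest difference in that direction, and the next had values of 3.59, 3.44 and 3.26. Without Atf3-/- unstimulated replicate 3 Plac8 had rank 3, and it kept the first place when any other array was left out, under quantile normalization, after median subtraction, with values below 4 raised to 4 and with the on/off state in the fit. In the same contrast 7.16% of probesets were called higher in Atf3-/- (limma, Benjamini-Hochberg adjusted p under 0.05), from which nothing is read about Plac8, since this contrast chose it.

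The wild type level without LPS was near the lower end of what the arrays gave. The lowest 10% of all values ended at 3.25, 3.27 and 3.33 on the 3 wild type arrays without LPS, against 3.69, 3.28 and 3.95 for Plac8. Replicate 2 thus lay at that bound. Folds taken from this group depend on the background correction, which no source used here gives. With all values below 4 raised to 4, the difference was 3.58. The 1 Atf3-/- array without LPS in the high state, replicate 3, exceeded the mean of the 3 wild type arrays, all in the high state, by 4.12.

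**Figure D1:**
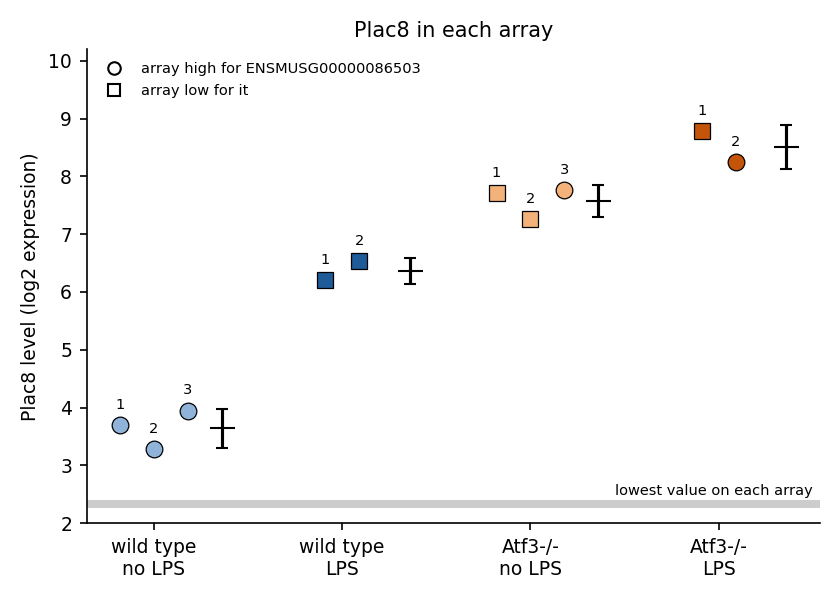
Plac8 level (log2 expression, vertical axis) in each of the 10 arrays by group, numbered by replicate, with the mean and SD of each group as bars. Circles are arrays high for probeset ENSMUSG00000086503, squares are arrays low for it, and the grey band spans the lowest value on each array. The 4 groups do not overlap and rise from 3.64 in wild type without LPS to 8.51 in Atf3-/- with LPS.

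The arrays with LPS, which are not part of the resting contrast that singled out the gene, also differed by genotype, although the gene was taken up with earlier results of all arrays known. After LPS the Plac8 level was 6.20 and 6.53 in wild type, a mean of 6.37 ± 0.23 (SD, n = 2). In Atf3-/- it was 8.78 and 8.24, a mean of 8.51 ± 0.38 (SD, n = 2). Both Atf3-/- arrays lay above both wild type arrays, as in 21.0% of all probesets. The Atf3-/- level of Plac8 exceeded that of wild type by a log2 difference of 2.15 (95% interval 1.61 to 2.68, SE 0.24, limma adjusted p = 0.000637), or 4.43-fold. In this contrast 1.96% of probesets were called higher in Atf3-/-, and Plac8 had rank 9 from the top by size. The rank was 33 without Atf3-/- LPS replicate 1 and 3 without replicate 2 of that group. The limma test above pooled the spread over all 10 arrays, the resting ones included. Fitted on the 4 arrays with LPS alone, limma gave an adjusted p of 0.0198 (SE 0.21). An exact permutation test of the 4 values alone had p = 0.333, which is the lowest p within reach of 2 arrays per group. The Atf3-/- array in the low state, replicate 1, exceeded the mean of the wild type arrays, both in the low state, by 2.41. With the on/off state as a covariate the difference was 2.18 (SE 0.28), given without a test because the covariate also draws on the resting arrays.

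Plac8 was the single probeset at least 2 log2 units higher in Atf3-/- in both states. The resting part of this criterion was met by the choice of the gene, so the count is a description. At 1 log2 unit there were 29 such probesets. The count at 2 rests on the arrays with LPS. Without Atf3-/- LPS replicate 1 no probeset met it, with Plac8 at 1.88 after LPS, and without wild type LPS replicate 1 another probeset met it, with Plac8 at 1.98. Of the 17 probesets at least 2 log2 units higher in resting Atf3-/- cells, Plac8 included, 6 were also called higher in Atf3-/- after LPS. Plac8 was among these 6, and of all probesets 1.96% were so called.

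**Figure D2:**
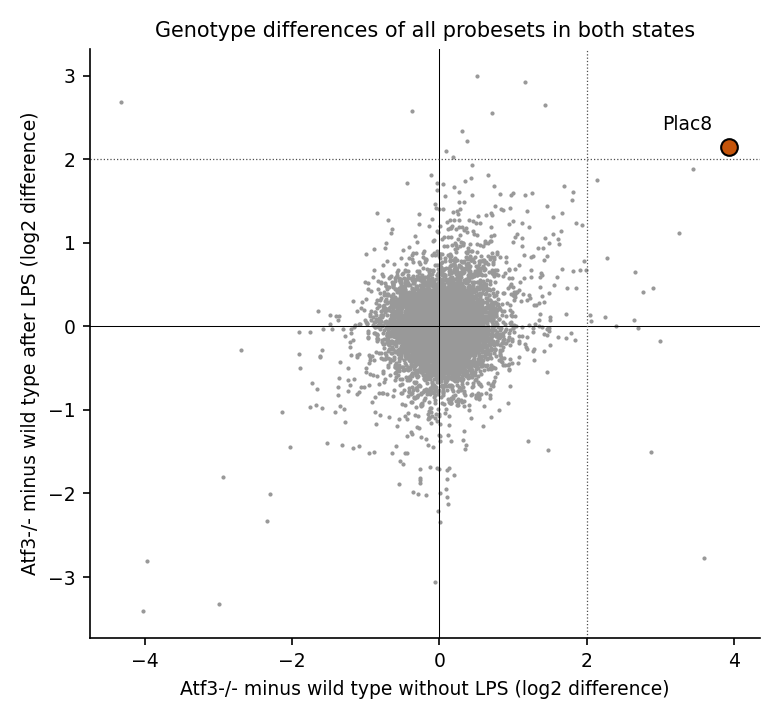
Log2 difference Atf3-/- minus wild type for all 16860 probesets, without LPS on the horizontal axis and after LPS on the vertical axis. Dotted lines mark 2 on each axis, and Plac8 at 3.94 and 2.15 is the one point beyond both.

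Plac8 was higher with LPS than without in these cells, although in wild type the on/off state of the arrays changed along with the treatment. Averaged over both genotypes, a contrast that is orthogonal by design to the one that chose the gene, the LPS response was 1.83 on the log2 scale (95% interval 1.49 to 2.17, SE 0.16, limma adjusted p = 1.09e-06), or 3.56-fold. This test also draws on the resting arrays, and its orthogonality assumes that all arrays vary equally. Nor does orthogonality undo the choice of the gene with earlier results of all arrays known. A rise by this test was common, with 24.1% of probesets called higher, and Plac8 ranked 472 by size. Of the 17 probesets at least 2 log2 units higher in resting Atf3-/- cells, 14 were called higher by it, Plac8 included. With the on/off state in the fit the mean response was 1.80 (SE 0.19), given without a test because it is then no longer orthogonal to the resting contrast. The state effect in this fit comes from Atf3-/- arrays, since each wild type group held 1 state, and for Plac8 it was -0.07 (SE 0.23), high minus low. It averages over opposite directions. In resting Atf3-/- the array in the high state was at 7.76, against 7.71 and 7.26 in the low state. With LPS the high one was at 8.24 against 8.78. The small value thus does not show that Plac8 is free of the state.

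The mean was made up of unequal parts, which are described and not tested because they use the arrays that chose the gene. In wild type the Plac8 level with LPS was higher by 2.73 (SE 0.22), or 6.62-fold. In Atf3-/- it was higher by 0.94 (SE 0.22), or 1.91-fold. The response difference, Atf3-/- minus wild type, was -1.79 (SE 0.31). The start near background in wild type bears on it, and with values below 4 raised to 4 it was -1.43. In Atf3-/- the arrays of the high state differed by 0.48 between LPS and no LPS, with 1 array on each side, and those of the low state by 1.30, with 1 array against 2. The Plac8 levels of all Atf3-/- arrays with LPS lay above those of all Atf3-/- arrays without.

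Ordered by level, the groups ran from wild type without LPS through wild type with LPS and Atf3-/- without LPS to Atf3-/- with LPS. Resting Atf3-/- cells thus had more Plac8 signal than wild type cells after LPS, by 1.21 on the log2 scale or 2.31-fold. No neighbouring groups overlapped. The nearest arrays were 2.26 apart between the lowest groups, 0.73 apart between the middle groups and 0.48 apart between the highest groups. The SD of Plac8 within groups, pooled over all arrays, was 0.31. That was above the SD of 96.9% of probesets, whose median was 0.14. All 3 gaps between nearest arrays exceeded this SD. This order of all 10 arrays was found for 10 probesets including Plac8, 0.0593% of those measured, and 5 of the 10 were at least 1 log2 unit higher in resting Atf3-/- cells. The order was taken from Plac8 itself, resting arrays included, so Plac8 met it by definition and the count is a description. The count was 8 after median subtraction and 11 under quantile normalization, with Plac8 among them both times. With 1 array left out it lay between 11 and 29, the highest without wild type LPS replicate 2. Leaving out an array cannot lower this count or take Plac8 out of it, so this range is no check of the order.

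Some probesets varied like Plac8 across the arrays. Likeness was taken as Pearson's r over the 10 arrays among the 3105 other probesets whose group means spanned at least 1 log2 unit. It was at least 0.95 in 4 of them and at least 0.9 in 14, while 28 lay at -0.9 or below. These arrays share their groups, and r here largely reflects group means. For the 10 most like probesets the deviations from group means correlated with those of Plac8 at -0.69 to 0.63, with a median of 0.10. These 10 had r of 0.92 to 0.99, and their resting genotype difference ran from 0.64 to 3.44 with a median of 1.40. In all 10 the fitted LPS response was above 0 in both genotypes, at 0.64 to 2.74 in wild type and 0.05 to 0.83 in Atf3-/-. The choice of these 10 by r over the same arrays favours such differences, so they are a description.

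The closest was ENSMUSG00000034438, with r of 0.99 and Spearman's rho of 0.98. Its log2 level was 2.98, 2.85 and 3.22 in wild type without LPS and 5.44 and 5.15 with LPS. In Atf3-/- it was 6.60, 6.31 and 6.45 without LPS and 7.19 and 7.16 with LPS. It had the same order of groups as Plac8 with no overlap. On the wild type arrays without LPS the lowest 10% of values ended at 3.25, 3.27 and 3.33. This probeset lay below that bound on each, so the size of its resting difference is limited by signal near background. The next was ENSMUSG00000075602 (r of 0.98, rho of 0.94), whose group means were 6.69 and 9.43 in wild type and 9.94 and 10.6 in Atf3-/-, without and with LPS. The resting genotype differences of the closest probeset and this one, 3.44 and 3.26, ranked 3 and 4 among all probesets. The most opposite was ENSMUSG00000076617, with r of -0.99. Its group means were 9.06 and 7.75 in wild type and 7.38 and 6.81 in Atf3-/-, so it was highest where Plac8 was lowest. ENSMUSG00000064215 followed with r of -0.99 and group means from 9.94 in resting wild type to 8.79 in Atf3-/- with LPS. These IDs are listed for their pattern alone, and levels of different probesets are not compared.

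**Figure D3:**
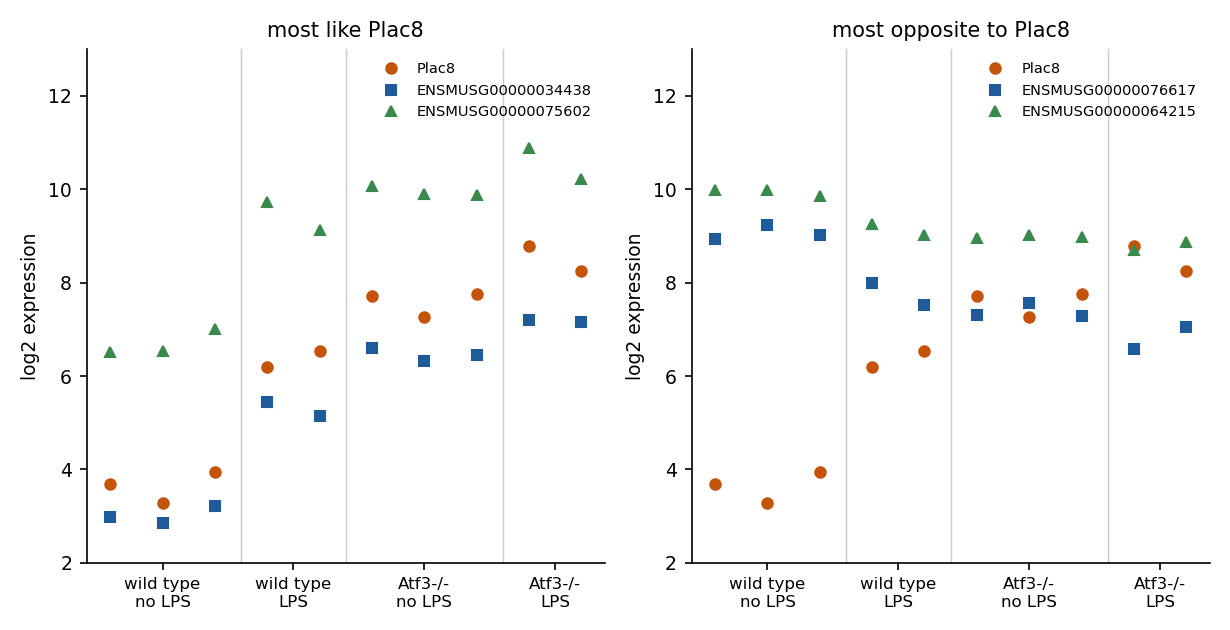
Log2 expression (vertical axis) of Plac8 and of the 2 probesets most like it (left) and most opposite to it (right) in the 10 arrays, by group. Points are single arrays, in the order of their replicate numbers. The left probesets are lowest in wild type without LPS and highest in Atf3-/- with LPS, as Plac8 is, and the right ones run the other way.

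The genotype difference of Plac8 after LPS ranged from 1.88 to 2.41 over 20 alternatives. Where its estimate drew on the arrays with LPS alone and had a test, its limma adjusted p ran from 0.000406 to 0.0198. The highest came from the fit of only the groups compared. The other fits took the spread from the resting arrays as well. The mean LPS response of Plac8 ranged from 1.65 to 1.96 over 18 alternatives. Among these, 6 kept the response orthogonal to the resting contrast by design, and their limma adjusted p ran from 6.12e-07 to 0.000165. The highest p was that with values below 4 raised to 4. That floor made the 3 resting wild type values of Plac8 equal, so orthogonality of its values is not assured there. The other alternatives are values with no test. Without LPS the genotype difference, given as a description, ranged from 3.58 to 4.12.

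**Figure D4:**
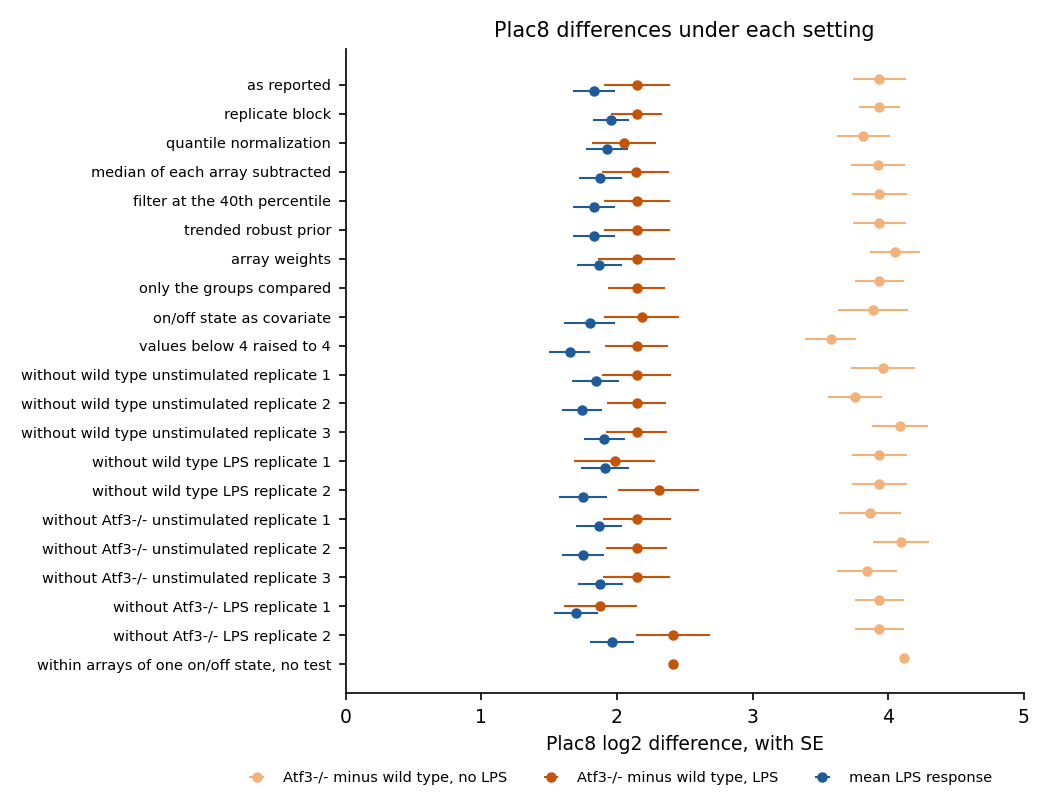
Plac8 log2 difference (horizontal axis, with limma SE as bars) under each setting listed on the vertical axis, for the genotype difference without LPS, that after LPS and the mean LPS response. Every value lies above 0, and the genotype difference without LPS is at least 3.58 in each.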

How the data were processed

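Each deposited value is the log2 expression of 1 probeset on 1 array. The authors, per the series' design text, re-processed probe intensities of earlier released arrays with CustomCDF probesets that regroup probes by Ensembl gene, and per the submitters' processing notes they used affy 1.26.1. No source used here gives the background correction or the normalization. The table held 16860 probesets and 0 missing cells. All 10 arrays were fitted with 1 mean per group in limma 3.58.1 (R 4.3.3, lmFit and eBayes, 6 residual degrees of freedom, prior 5.44), with two-sided tests, p-values adjusted over all probesets (Benjamini-Hochberg) and a threshold of 0.05. The fit was tested on simulated data with independent noise, which held no array state and no effect shared by arrays of the same replicate number. Arrays have no depth, and their number limits the precision. Of the IDs, 0 matched a name in the reference table, so Plac8 was named by its given ID. The gene lists, cell type markers and neighbouring genes planned for this work were not analysed here. Genes were named by likeness to Plac8, limited to 2 IDs in each direction. Plac8 and all rules were chosen with earlier results of these data known. Alternatives were a replicate block, quantile normalization, median subtraction, leaving out probesets with mean expression under the 40th percentile, a trended robust prior, array weights, only the groups compared, the on/off state of the arrays (split at 6 on the log2 scale), a floor of 4, and leaving out each array. Where that left 1 array in a group, it was assumed to vary like the other groups. By design, the mean LPS response is orthogonal to the resting contrast with all arrays, equal weights and no covariate other than the replicate block. This assumes that all arrays vary equally.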

Additional observations from a re-analysis of the deposited data

How the results depend on the processing

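The Plac8 differences named in the report kept their direction under every alternative run. With 1 array left out, the genotype difference after LPS was 1.88 to 2.41, and the mean LPS response 1.70 to 1.96. Leaving out a resting array cannot move the genotype difference after LPS, which stayed past the threshold in those fits. The mean response is a value with no test there, as with array weights or the state in the fit, since it is then not orthogonal to the resting contrast. In the 6 alternatives that keep it so by design, the floor among them, it stayed past the threshold. With the floor the resting wild type values of Plac8 are equal, so orthogonality of its values is not assured in that fit. Left-out arrays gave 3.76 to 4.10 for the genotype difference without LPS. Raising values below 4 to 4 moved the described values by more than the replicate SD, to 3.58 without LPS, 2.37 for LPS in wild type and -1.43 for the response difference. This follows from the wild type level lying below 4. Without LPS 2157 were called, against 3003 with array weights, 2561 with only the groups compared, 1052 with the on/off state, 1356 with the floor and 1193 to 2418 with 1 array left out (for Atf3-/- unstimulated, 1193 lacking replicate 2 and 1336 lacking replicate 3, and for wild type unstimulated, 1382 lacking replicate 1 and 1321 lacking replicate 3). After LPS 662 were called, against 414 with array weights, 419 with the state, 342 with the floor, 63 with only the 4 arrays compared and 231 to 971 with 1 array left out (231 when wild type LPS replicate 1 was dropped, 319 when Atf3-/- LPS replicate 2 was). With the replicate block the Plac8 difference after LPS was 2.15 (SE 0.19, against 0.24) and the mean LPS response 1.95, and 2556 probesets were called without and 806 after LPS. Of 13 pairs of arrays with the same number, 7 correlated above 0.1 in their deviations from group means (range -0.07 to 0.30). Pairing was taken as given if every pair did, so the arrays were not treated as paired, and these values leave it undecided. Of the 10 probesets most like Plac8, 7 were shared with the list by Spearman's rho and 6 with that over the 4 group means. For changes measured from resting wild type, signal near background limits the size. The cause of the changes in count was not tested.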
